A study of Mus musculus with 12 samples.

Results

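The cadherin superfamily genes examined here were the 95 mouse protein-coding genes, of 21887, whose symbol begins with Pcdh or consists of Cdh or Celsr and a number. They comprised 57 clustered protocadherins in the Pcdha, Pcdhb and Pcdhg arrays (14, 22 and 21 genes), 12 other protocadherins, 23 Cdh genes and 3 Celsr genes. Binding of the transcription factors Zic1 and Zic2 was read at these genes with CUT&RUN, in which an antibody tethers a nuclease that releases the DNA around a bound protein. Cultured mouse cerebellar granule neurons were harvested after 1, 3, 5 or 7 days in vitro (DIV1, DIV3, DIV5 and DIV7), with 3 biological replicates at each day and 12 libraries in all. All libraries used 1 antibody against the C terminus of Zic1/2, so the 2 proteins cannot be told apart. Per the labels, cells received 1 uM cytosine arabinoside, which kills dividing cells, at DIV2, so the DIV1 libraries precede that step and the later libraries follow it. The labels name no genotype, strain or age.

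Cadherins are calcium-dependent adhesion proteins whose tails bind catenins and, through them, actin. Each clustered protocadherin promoter drives 1 variable first exon; in the Pcdha and Pcdhg arrays these are joined to shared exons at the end of the array, and neurons choose among the promoters with the help of CTCF and cohesin, while the C-type genes at the ends of the Pcdha and Pcdhg arrays are expressed more constantly. The Celsr proteins are the mammalian homologues of Flamingo and act in planar cell polarity and axon guidance. Zic1 and Zic2 are zinc finger proteins expressed in cerebellar granule neurons and their progenitors. No RNA was measured, and a peak at a gene is binding near it, not its expression.

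A peak was assigned to a gene when it overlapped the gene's span or the 5 kb on either side. The libraries held 65102 to 89417 peaks and 1.01 M to 3.27 M reads in peaks. Reads in peaks moved with the day, from 2.96 ± 0.285 M (SD, n = 3) at DIV1 to 1.68 ± 0.748 M at DIV7, and the 3 libraries with fewest reads were DIV5 replicate 3 and DIV7 replicates 1 and 3. Read length, recovered from the signal, was 51 bases in 6 libraries (all of DIV1 and 1 of each later day) and 50 bases in the other 6. Of 8 granule neuron marker genes, 7 held a peak in all 12 libraries; so did 2 of 4 astrocyte and 1 of 4 oligodendrocyte markers, and none of 3 Purkinje cell and 3 microglia markers. Among all 21887 protein-coding genes 11503 did, and lists this short cannot be set apart from that share. Binding cannot show which cells were present.

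The promoters printed here, 250 bases before to 50 after a RefSeq start (GRCm38.p6), show the range of binding at the genes outside the arrays. Capitals mark CCTGCTG, a Zic-type motif, or its reverse complement CAGCAGG. Pcdh9 and Cdh18 overlapped a peak in all 12 libraries, Celsr3 in 11, Pcdh18 in 7 and Pcdh20 in none.
Pcdh9, chr14:93890620-93890919, minus strand: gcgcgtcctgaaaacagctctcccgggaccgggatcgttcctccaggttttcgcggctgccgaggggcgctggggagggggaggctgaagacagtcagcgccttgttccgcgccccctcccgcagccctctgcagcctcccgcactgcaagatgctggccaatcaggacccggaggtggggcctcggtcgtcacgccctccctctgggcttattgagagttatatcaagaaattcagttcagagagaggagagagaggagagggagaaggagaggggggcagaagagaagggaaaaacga
Celsr3, chr9:108825795-108826094, plus strand: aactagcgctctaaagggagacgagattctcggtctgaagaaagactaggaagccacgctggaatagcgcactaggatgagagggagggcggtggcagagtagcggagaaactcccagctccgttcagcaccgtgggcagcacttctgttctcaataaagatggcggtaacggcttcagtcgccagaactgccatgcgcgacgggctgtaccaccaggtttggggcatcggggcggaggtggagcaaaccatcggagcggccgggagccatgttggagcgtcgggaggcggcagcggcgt
Cdh18, chr15:23036213-23036512, plus strand: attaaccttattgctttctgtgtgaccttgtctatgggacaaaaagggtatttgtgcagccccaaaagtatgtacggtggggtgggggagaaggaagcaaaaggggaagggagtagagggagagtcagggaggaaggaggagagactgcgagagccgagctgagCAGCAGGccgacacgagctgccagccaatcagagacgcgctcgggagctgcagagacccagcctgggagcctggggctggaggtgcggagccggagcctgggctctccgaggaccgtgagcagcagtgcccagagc
Pcdh18, chr3:49757267-49757566, minus strand: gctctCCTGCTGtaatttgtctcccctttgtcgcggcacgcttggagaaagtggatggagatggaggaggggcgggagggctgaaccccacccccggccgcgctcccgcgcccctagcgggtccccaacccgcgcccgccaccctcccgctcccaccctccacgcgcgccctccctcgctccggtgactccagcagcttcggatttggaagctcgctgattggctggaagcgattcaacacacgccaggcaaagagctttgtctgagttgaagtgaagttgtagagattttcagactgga
Pcdh20, chr14:88471347-88471646, minus strand: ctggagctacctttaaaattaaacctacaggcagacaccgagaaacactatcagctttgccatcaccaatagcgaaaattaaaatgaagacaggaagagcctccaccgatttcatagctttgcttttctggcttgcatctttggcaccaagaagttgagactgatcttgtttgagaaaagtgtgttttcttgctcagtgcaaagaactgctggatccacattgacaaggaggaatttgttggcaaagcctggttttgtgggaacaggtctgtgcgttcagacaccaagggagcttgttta
These windows hold 19, 25, 12, 23 and 4 CG dinucleotides in the order shown. The motif occurs once in the Cdh18 window, as CAGCAGG, and once in the Pcdh18 window, as CCTGCTG, and these letters are not in the other windows shown.

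Of the members, 24 had 27 promoters in the RefSeq table. No member on chromosome 18 was among them, so all clustered protocadherins are missing, as are Cdh13, Cdh4 and Celsr1. The shares below thus describe only part of the members. Peaks overlapped 8 of the 27 (29.6%) in all 12 libraries, against 28.1% of 21263 promoters of protein-coding genes, and 3 of the 27, those of Cdh23, Cdh26 and Pcdh20, in none. The 8 constantly bound windows belonged to Cdh7 (2 starts), Cdh18, Cdh22, Cdh24, Pcdh9 (2 starts) and Pcdh10, so some share their peak. They held a median of 19 CG dinucleotides, against 25 in all promoters with a peak in 12 libraries and 3 in all promoters with none; the 3 member promoters without a peak held 4 or 5. CCTGCTG on either strand was present in 2 of the 27 (7.41%) and in 10.5% of all promoters. The E-box CAGCTG, which reads the same on both strands, was in 3 of the 27, those of Cdh9, Cdh12 and Pcdh15, and in 15.6% of all promoters; the 2 motifs do not overlap in these 3 windows, since none holds both.

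Peaks in the members' windows became a smaller share of the library with time in culture, as did those at the Cdh genes and at the Celsr genes taken alone. Per 10000 peaks, the 95 genes held 38.3 ± 0.947 (SD, n = 3) on the first of these days, 38.8 ± 2.21 at DIV3, 33.4 ± 1.87 at DIV5 and 27.9 ± 3.08 at the last. The 3 DIV1 libraries gave 39.1, 38.4 and 37.3 and the 3 DIV7 libraries 27.8, 30.98 and 24.8, with no overlap. The level correlated with the day over 12 libraries (Pearson's r = -0.862, two-sided exact permutation p = 0.000314, Benjamini-Hochberg adjusted p over the 5 gene sets = 0.000785; Spearman's rho = -0.885, exact permutation p = 0.000400).

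**Figure D1:**
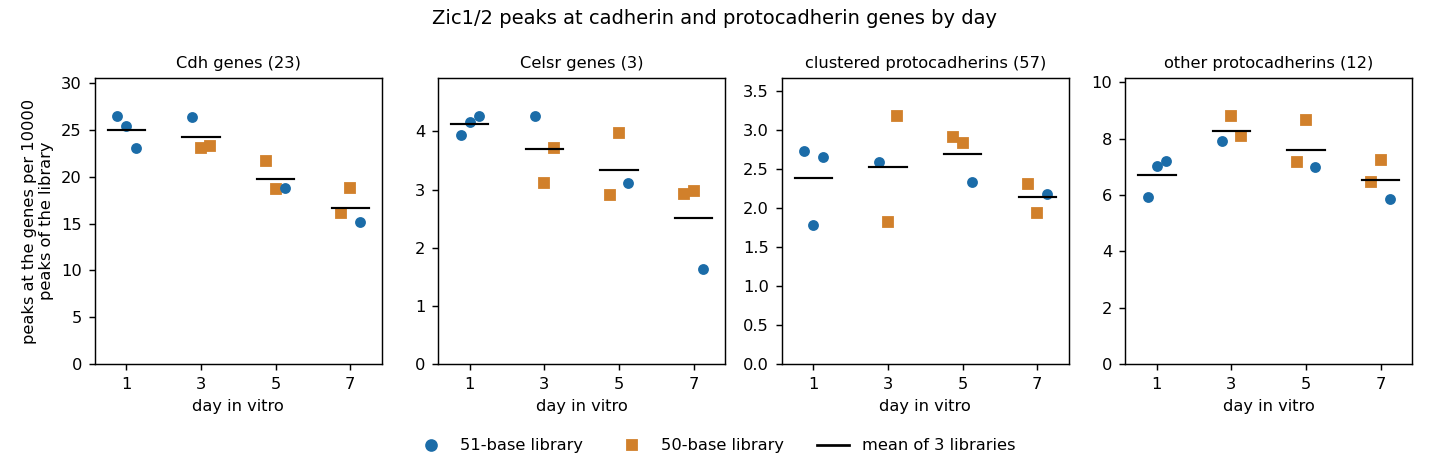
Peaks at each family per 10000 peaks of the library (vertical axis, from 0) against day in vitro, 1 point per library, marked by read length, with the mean of 3 libraries as a bar. The Cdh points descend from 23.1 to 26.5 at DIV1 to 15.1 to 18.8 at DIV7, while the means of the clustered and other protocadherins are highest at DIV5 and DIV3.

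The 23 Cdh genes held 25.0 ± 1.75, 24.3 ± 1.84, 19.7 ± 1.70 and 16.7 ± 1.92 peaks per 10000 at the 4 days in order (SD, n = 3 each). In single libraries the DIV1 values were 26.5, 25.4 and 23.1 and the DIV7 values 16.1, 18.8 and 15.1. The level fell with the day (r = -0.891, exact permutation p = 0.000195, adjusted p = 0.000785; rho = -0.864, exact permutation p = 0.000779). The 3 Celsr genes held 4.13 ± 0.166, 3.70 ± 0.579, 3.33 ± 0.565 and 2.51 ± 0.755 in the same order of days (r = -0.778, exact permutation p = 0.00237, adjusted p = 0.00395; rho = -0.799, exact permutation p = 0.00341). Most of that fall lay at Celsr1, with 2.12 ± 0.498 at DIV1 and 0.694 ± 0.255 at DIV7. Celsr2 went from 1.26 ± 0.337 to 1.02 ± 0.414 and Celsr3 from 0.744 ± 0.249 to 0.793 ± 0.121.

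The trends of the protocadherins did not pass. The 57 clustered genes held 2.39 ± 0.526, 2.53 ± 0.686, 2.69 ± 0.314 and 2.14 ± 0.187 peaks per 10000 (r = -0.149, exact permutation p = 0.637; rho = -0.130, exact permutation p = 0.708). The 12 other protocadherins held 6.72 ± 0.699, 8.28 ± 0.471, 7.60 ± 0.914 and 6.51 ± 0.684 (r = -0.156, exact permutation p = 0.623; rho = -0.173, exact permutation p = 0.609). A p that misses the threshold does not show that these levels were constant. Within the 6 libraries of 50 bases r was -0.770 for the other protocadherins (exact permutation p = 0.0889). The Pcdha array alone held 0.972 ± 0.308 peaks per 10000 at DIV1 and 0.650 ± 0.154 at DIV7, and the coefficients of all its 14 genes, which share peaks, were negative with none past the test of each gene. The Cdh and clustered trends were not compared by a test. The Cdh genes fell relative to the other protocadherins (r of the log2 difference in density with day = -0.749, exact permutation p = 0.00394), a test added after the values were seen. That difference did not pass with peaks of at least 20 reads (r = -0.270, exact permutation p = 0.398) or within the 50-base libraries (r = -0.285, exact permutation p = 0.556).

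Depth and read length moved with the day beside these trends. Within the 6 libraries of 51 bases r was -0.873 for all members (exact permutation p = 0.0333), -0.885 for Cdh (p = 0.0250, exact permutation) and -0.910 for Celsr (p = 0.0250, exact permutation); within the 6 of 50 bases it was -0.948 (p = 0.0222, exact permutation), -0.894 (p = 0.0444, exact permutation) and -0.454 (p = 0.333, exact permutation). None of these passed adjustment over the 5 sets. In the 50-base libraries the 90 assignments of days allow no p below 0.0222, so adjustment could hardly be passed there. Without the 3 libraries with fewest reads, r was -0.805 for all members, -0.818 for Cdh and -0.691 for Celsr, with adjusted exact permutation p of 0.0223, 0.0223 and 0.0675, so the Celsr trend no longer passed. Leaving out any 2 of the 6 DIV1 and DIV7 libraries gave r from -0.891 to -0.803 for all members, -0.939 to -0.827 for Cdh and -0.794 to -0.700 for Celsr. The share of all peaks lying in the window of any protein-coding gene also fell, from 69.6 ± 1.64% at DIV1 to 63.2 ± 3.06% at DIV7; per 10000 such peaks r was -0.833 for Cdh (exact permutation p = 0.00140). The levels correlated with depth, as log2 reads in peaks, over 12 libraries: r was 0.807 for all members (permutation p = 0.00318, adjusted p over the 5 sets = 0.00795; rho = 0.846, permutation p = 0.00130), 0.844 for Cdh (permutation p = 0.000580, adjusted p = 0.00290; rho = 0.895, permutation p = 0.000240) and 0.612 for Celsr (permutation p = 0.0538, adjusted p = 0.0897; rho = 0.559, permutation p = 0.0626). Without DIV7 replicates 1 and 3, the farthest in depth, these r were 0.674, 0.778 and 0.480. Depth and day cannot be told apart in these trends.

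Peak density over the summed windows differed between the families. Per 10000 peaks and per megabase of window, the mean over 12 libraries was 15.7 for the Celsr genes, 3.69 for the clustered protocadherins, 3.29 for Cdh and 1.86 for the other protocadherins, against 5.51 ± 0.304 (SD, n = 12) for the windows of all protein-coding genes. The Celsr windows were denser than all gene windows in 12 of 12 libraries, and those of the other families sparser in 12 of 12. Single genes of a family spread widely. Among the other protocadherins, Pcdh11x (620 kb) and Pcdh15 (1554 kb) held a mean of 0.304 and 0.586 peaks per 100 kb of window. Pcdh1 (26.1 kb) and Pcdh8 (4.54 kb) held 18.2 and 21.2, and Cdh genes 0 to 10.3. The other protocadherins filled 3.92 Mb of window and the 57 clustered genes 0.661 Mb, and gene length was not separated from family. The clustered protocadherins were 2.00-fold denser than the other protocadherins (log2 difference 1.00 ± 0.317, SD, n = 12; higher in 12 of 12 libraries, two-sided exact sign-flip permutation p = 0.000488, the smallest that 12 libraries allow). That p covers only how the same windows repeat over libraries. The loci are single pieces of the genome and not replicates, so it does not test one family against another. The clustered minus other difference showed no trend with day (r = -0.00845, exact permutation p = 0.980).

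Within the clustered genes the density came from the C-type ends of 2 arrays. Per 10000 peaks and megabase it was 7.62 in the Pcdhg array, 3.29 in Pcdha and 0.521 in Pcdhb. A library held 7 to 16 peaks in the Pcdhg window, 4 to 10 in the Pcdha window and 0 to 3 in the windows of the 22 Pcdhb genes, and 12 Pcdhb genes held none in any library. The Pcdhb genes each have a single coding exon and no shared constant exon.

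Starts were taken as the lower end of each gene's RefSeq span, since these arrays are transcribed toward higher coordinates, with 1 kb on either side. At the starts of Pcdhac2, Pcdhgc3 and Pcdhgc4 a peak was present in 12 of 12 libraries. Pcdhgb7 had one in 10, Pcdhac1 in 7 (3 at DIV1, 2 at DIV3, 2 at DIV5 and none at DIV7) and Pcdhgc5 in 2. The other 51 starts had a peak in at most 3 libraries, and 35 of the 57 had none in any. At 11 of 21 Pcdhg, 5 of 14 Pcdha and 19 of 22 Pcdhb starts no library held a peak.

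**Figure D2:**
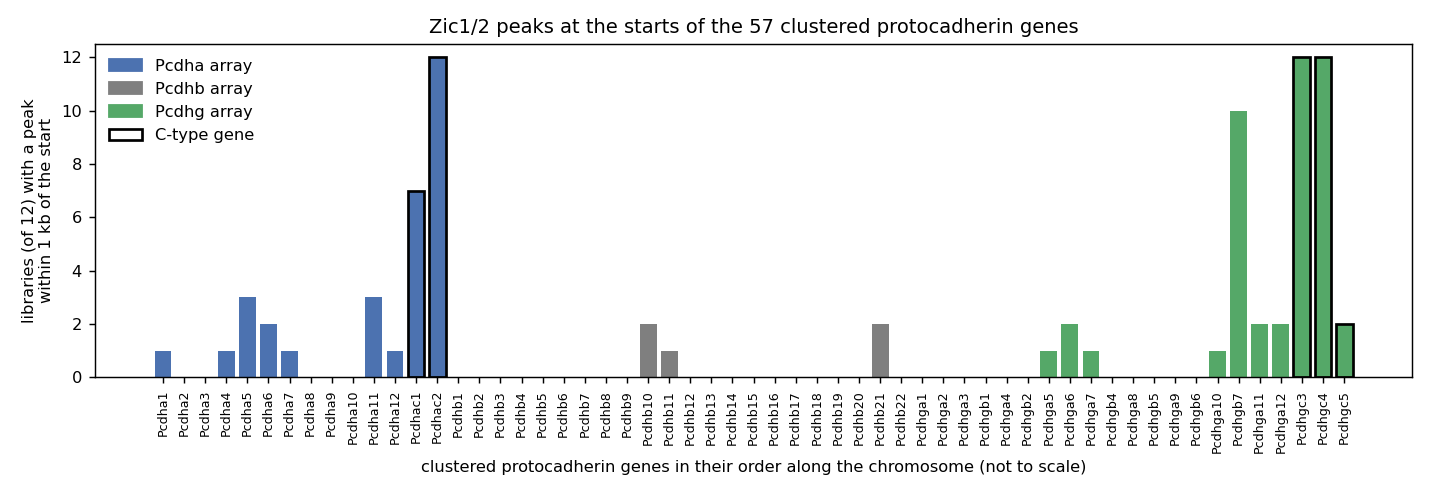
Number of libraries, of 12, with a peak within 1 kb of the start of each clustered protocadherin (bars, from 0), in the genes' order along the chromosome and coloured by array, with C-type genes outlined in black. Bars reach 12 at Pcdhac2, Pcdhgc3 and Pcdhgc4 and 10 at Pcdhgb7, and 35 starts have no bar.

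The arrays lie on chromosome 18 (mm10). The region over the Pcdhgc3 start spanned 3822 bp (chr18:37805606-37809427), that over Pcdhgc4 2423 bp (chr18:37814048-37816470) and that over Pcdhac2 2027 bp (chr18:37143150-37145176). These 3 were the shared regions of the clustered genes, meaning merged peaks found in all 12 libraries, of 70 merged regions there. Ranked by the authors' maximum signal among the 12276 shared regions of a library, they averaged the 65.8th, 37.4th and 49.4th percentile. The Pcdhgc3 region was at the 90.5th, 92.7th and 94.2nd percentile at DIV1, the 40.1st, 84.0th and 68.5th at DIV3, the 20.1st, 20.3rd and 53.1st at DIV5, and the 64.9th, 67.0th and 94.1st at DIV7. DIV5 lay below DIV1 in every library, DIV7 replicate 3 lay within the DIV1 range, and the trend with day did not pass (adjusted p = 0.487, limma).

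Between the first C-type start and the shared end of the Pcdhg array, 35.5 kb, libraries held 19.03 ± 5.39 peaks per 100 kb (SD, n = 12), against 1.96 ± 1.21 over the 144.6 kb of variable genes before it, a 9.74-fold difference in the same direction in 12 of 12 libraries. In the Pcdha array the values were 4.39 ± 1.90 and 1.36 ± 0.747, 3.08-fold, higher in 11 of 12; the exception was DIV5 replicate 3, with 1 peak in 98.8 kb and 3 in 159.9 kb. These stretches were drawn after the starts had been counted, and no test is given. The stretch after the C-type start holds the C-type promoters and the constant exons together.

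**Figure D3:**
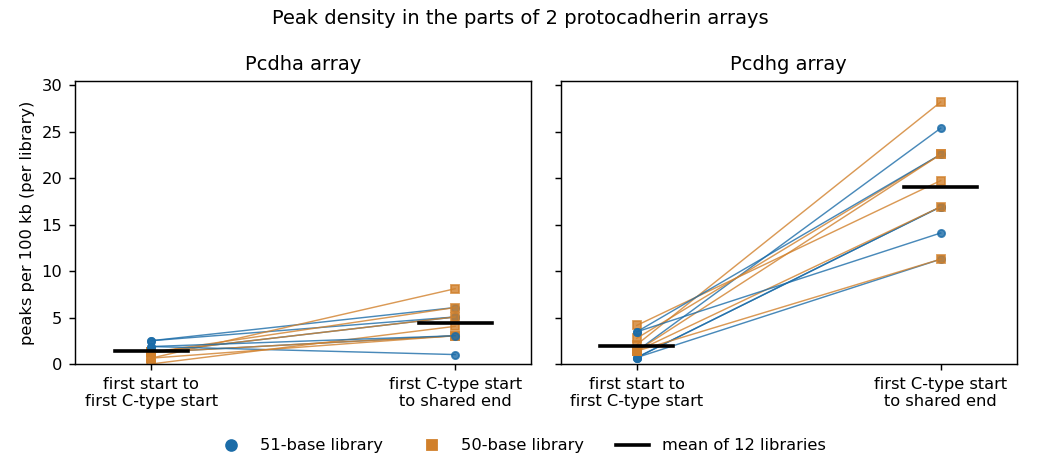
Peaks per 100 kb (vertical axis, from 0) in the variable part and in the C-type and constant part of the Pcdha and Pcdhg arrays, 1 line per library marked by read length, with the mean of 12 as a black bar. Means rise from 1.36 to 4.39 in Pcdha and from 1.96 to 19.03 in Pcdhg, and all lines but 1 rise.

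Gene by gene, peaks per 10000 were tested for a linear trend with day with limma on log2(peaks per 10000 + 0.5), over 5665 protein-coding genes with a mean of at least 3 peaks per library. Of those genes 10.2% fell and 3.62% rose (adjusted p under 0.05, limma; 13.8% in either direction), and their median coefficient was -0.0168 log2 units per day. Of the 95 members 58 were tested: 35 clustered genes, 7 other protocadherins, 13 Cdh and 3 Celsr. Of them 5 fell and 0 rose, and their median coefficient was -0.0109; 34 of 58 coefficients were negative. Outside the arrays 5 of 23 fell, and among the 35 clustered genes 0, but genes of an array share peaks and are not separate observations. Calls were more frequent among genes with many peaks. With a mean of at least 10 peaks, 337 of 861 genes passed, 265 of them falling. Of the 21 members in that class 4 passed: Cdh13, Cdh4, Cdh23 and Celsr1. Outside the arrays the class also held Cdh22 and Pcdh9, which did not pass. The rest of the 21 were Pcdhg genes, which share peaks, so 4 of 21 is not a count of separate observations. The count of 5 of 23 was not set apart from peak number by a test.

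Celsr1, a planar polarity receptor, had the most negative coefficient of the tested members. Its window held 14, 22 and 11 peaks at DIV1, 14, 10 and 11 at DIV3, 11, 11 and 11 at DIV5, and 5, 7 and 3 at DIV7. Its share fell from 2.12 ± 0.498 to 0.694 ± 0.255 peaks per 10000 between DIV1 and DIV7 (coefficient -0.18 ± 0.0368 SE per day, limma adjusted p = 0.00291). DIV1 and DIV7 did not overlap. The DIV1 and DIV7 values of 19.6% of all tested genes likewise did not overlap with DIV7 lower, and those of 10.2% with DIV7 higher.

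Celsr2 and Celsr3, its paralogues, did not pass. Celsr2 held 8, 8 and 11 peaks at DIV1 and 8, 10 and 4 at DIV7, with a coefficient of -0.04 ± 0.0380 SE. Celsr3, needed for axon tract formation, held 4, 5 and 7 at DIV1 and 6, 6 and 5 at DIV7 (coefficient 0.00478 ± 0.0327 SE). Their groups overlapped.

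Cdh13, or T-cadherin, which is anchored to the membrane by a lipid and lacks a cytoplasmic tail, held the most peaks on average, 44.4 per library against 32.9 for Cdh4, though Cdh4 held more in 2 libraries. Its window, over a span of 1185 kb (chr8:118140017-119324929), held 51, 52 and 45 peaks at DIV1, 55, 59 and 54 at DIV3, 62, 29 and 43 at DIV5, and 25, 35 and 23 at DIV7. The share was highest at DIV3 and lowest at DIV7, at 0.560 of the DIV1 share per 10000 (coefficient -0.14 ± 0.0355 SE, limma adjusted p = 0.0114).

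Cdh4, or R-cadherin, a classical cadherin, dropped early. It held 42, 55 and 43 peaks at DIV1, 29, 30 and 29 at DIV3, 37, 26 and 28 at DIV5, and 20, 30 and 26 at DIV7 (coefficient -0.12 ± 0.0316 SE, limma adjusted p = 0.0117). Per 10000 peaks it stood at 6.41 ± 0.109 at DIV1 and between 3.50 ± 0.402 and 4.05 ± 0.321 afterwards, so most of the difference lay between DIV1 and DIV3. All 3 DIV1 libraries were above every later one. They are all of 51 bases, precede cytosine arabinoside and belong to the day with most reads on average. Cdh4 was picked by its trend, and the share of all tested genes with this separation is not given here. With read length as a term Cdh4 missed the threshold (-0.107, limma adjusted p = 0.0540), as it did without DIV1 replicate 1 (-0.114, limma adjusted p = 0.0533).

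Cdh23 forms the tip links of hair cells together with Pcdh15. Its window held 14, 27 and 22 peaks at DIV1, 12, 13 and 17 at DIV3, 14, 14 and 11 at DIV5, and 6, 9 and 12 at DIV7 (coefficient -0.15 ± 0.0348 SE, limma adjusted p = 0.00595), and with peaks of at least 20 reads it missed the threshold (limma adjusted p = 0.0891). Pcdh15 held 5, 11 and 6 at DIV1 and 7, 10 and 7 at DIV7, which overlapped (coefficient 0.02 ± 0.0356 SE, limma adjusted p = 0.732). Cdh13, Cdh4 and Cdh23 together made up 48.6% to 70.1% of the Cdh peaks of a library (median 56.7%). Named after their trends were seen, they went from 16.1 ± 0.167 to 8.57 ± 0.886 peaks per 10000 between DIV1 and DIV7, and the other 20 Cdh genes from 8.92 ± 1.77 to 8.14 ± 1.24.

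**Figure D4:**
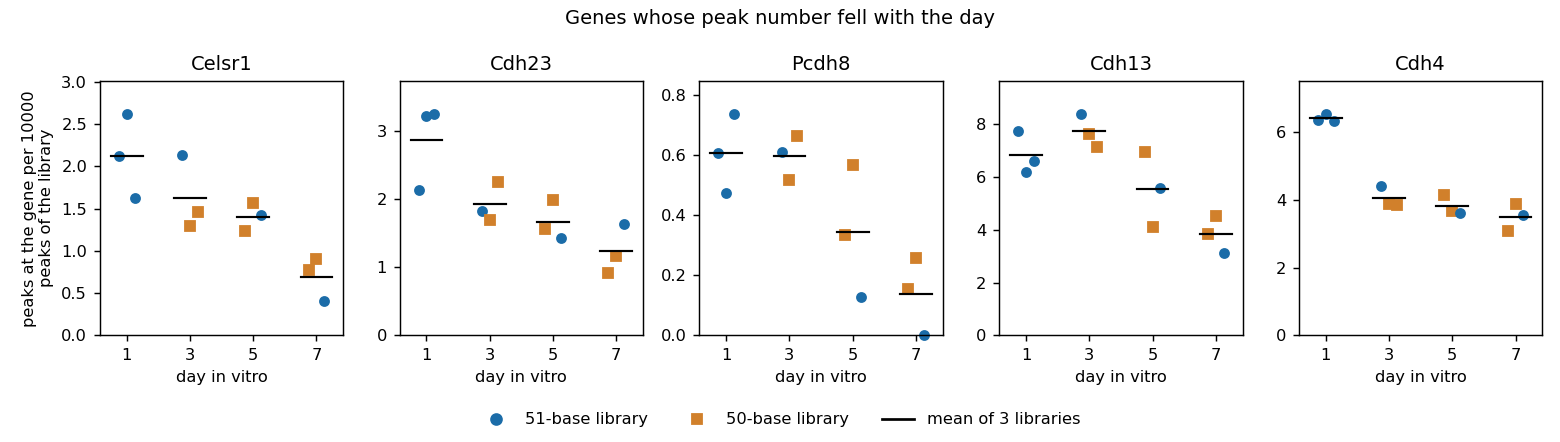
Peaks per 10000 peaks of the library (vertical axes, each from 0) at the 5 genes that fell, against day in vitro, 1 point per library marked by read length, with bars for the mean of 3. Every DIV7 point lies below every DIV1 point for each gene, and Cdh4 drops from 6.41 to 4.05 between DIV1 and DIV3. The genes were picked by their fall, so this separation is no added support. It also held in 19.6% of all tested genes.

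Pcdh8, a delta-2 protocadherin induced by neuronal activity, was the protocadherin that fell. Its window held 4, 4 and 5 peaks at DIV1, 4, 4 and 5 at DIV3, 3, 4 and 1 at DIV5, and 1, 2 and 0 at DIV7 (coefficient -0.14 ± 0.0337 SE, limma adjusted p = 0.00743). Its promoter itself overlapped a peak in 11 of 12 libraries, DIV7 replicate 3 being the exception. The DIV7 libraries with 1 and 0 peaks are among the 3 with fewest reads. With a mean of 3.08 peaks Pcdh8 lay close to the limit of 3 and dropped out of the test without DIV1 replicate 3 or DIV3 replicate 3.

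None of the 5 trends passed once depth was in the model. With depth, as log2 reads in peaks, added as a covariate 20 of all genes passed and 0 of the 5, with coefficients from -0.144 for Celsr1 to -0.0930 for Cdh13 and adjusted p from 0.205 to 0.423 (limma). Without the 3 libraries with fewest reads 163 genes and 0 members passed, with coefficients of -0.134 for Celsr1, -0.152 for Cdh23, -0.0792 for Pcdh8, -0.0932 for Cdh13 and -0.124 for Cdh4. Within the 51-base libraries 617 of 5803 genes passed, 478 of them falling, and 5 of 57 members. These members were Celsr1, Pcdh8 and Cdh4 (coefficients -0.215, -0.193 and -0.143, limma adjusted p = 0.0224, 0.0160 and 0.0354), and also Cdh20 and Cdh8, type II cadherins. The coefficients of Cdh13 and Cdh23 were -0.143 and -0.128 there (limma adjusted p = 0.0628 and 0.101). Within the 50-base libraries, which include no DIV1, 3 of 5817 genes and 0 members passed, the coefficient of Cdh4 being -0.0359.

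The other tested protocadherins outside the arrays were Pcdh9, Pcdh15, Pcdh7, Pcdh1, Pcdh10 and Pcdh17, none of which passed. Pcdh9, a delta-1 protocadherin, held 6, 10 and 9 peaks at DIV1, 13, 20 and 17 at DIV3, 16, 10 and 8 at DIV5, and 10, 16 and 11 at DIV7. Per 10000 peaks it was highest at DIV3 (2.28 ± 0.306) and DIV1 and DIV7 did not overlap (1.14 ± 0.212 and 1.70 ± 0.316), but the linear trend did not pass (0.04 ± 0.0411 SE, limma adjusted p = 0.621). Of all tested genes 10.2% likewise did not overlap, with DIV7 higher. Pcdh7 held 4 to 15 peaks, Pcdh1 5 to 9 and Pcdh10 3 to 8, with coefficients of 0.00565, -0.0107 and -0.00525 and limma adjusted p of 0.868 to 0.948. Pcdh17 held 0 to 5 peaks, with 0 in DIV7 replicate 3 (coefficient -0.05, limma adjusted p = 0.407).

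Of the remaining protocadherins, Pcdh11x, Pcdh12, Pcdh18, Pcdh19 and Pcdh20 had a mean below 3 peaks and were not in the test. Pcdh18 held 2, 4 and 2 peaks at DIV1 and 0, 1 and 0 at DIV7, and Pcdh20 a single peak in 1 library. With every gene of at least 1 peak tested, 6 members passed, Pcdh18 being added (-0.12, limma adjusted p = 0.0182).

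The naming rule also took in Cdh18, Cdh8 and Cdh22, none of which passed. Cdh18 held 5, 6 and 1 peaks at DIV1, 14, 15 and 11 at DIV3, 13, 8 and 6 at DIV5, and 5, 7 and 11 at DIV7, so that DIV3 stood above DIV1 in every library (coefficient 0.07 ± 0.0540 SE, limma adjusted p = 0.461). How many of all tested genes separate DIV3 from DIV1 in this way is not given here. Cdh8 held 4 to 9 peaks in 11 libraries and 1 in DIV7 replicate 3 (-0.07 ± 0.0406 SE, limma adjusted p = 0.246), and it passed with read length as a term (-0.126, limma adjusted p = 0.0403) and within the 51-base libraries (-0.166, limma adjusted p = 0.0311). Cdh22 held 5 to 16 (-0.06 ± 0.0371 SE, limma adjusted p = 0.260). Cdh2, or N-cadherin, the main classical cadherin of neurons, held 3 to 8 peaks, with a coefficient of 0.04 ± 0.0373 SE that did not pass. Cdh19, a type II cadherin of glia of the peripheral nervous system, held no peak in any library.

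By textbook subgroup, 0 of 8 tested type II cadherins, 1 of 3 type I (Cdh4), 2 of 2 atypical (Cdh13 and Cdh23), 0 of 3 delta-1 and 1 of 3 delta-2 protocadherins (Pcdh8) fell. Against 10.2% of all tested genes, groups of 2 to 8 give no result for a subgroup.

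**Figure D5:**
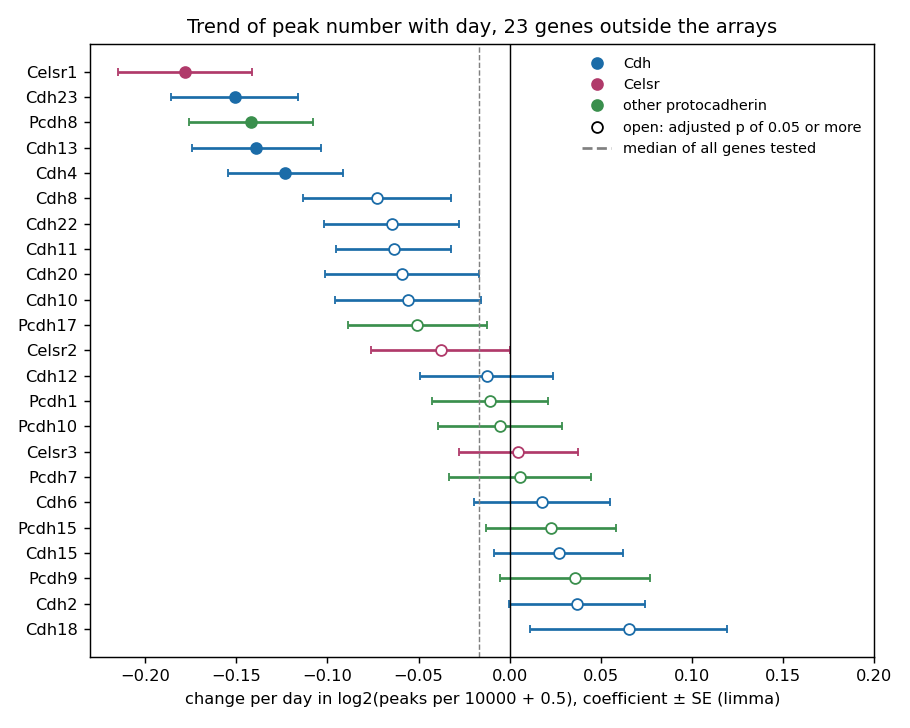
Change per day in log2(peaks per 10000 + 0.5) for the 23 tested members outside the arrays, as limma coefficient ± SE, with filled points for adjusted p under 0.05 and a dashed line at the median of all genes tested, -0.0168. The 5 filled points, from -0.178 to -0.123, are all negative.

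Of the genes the cadherins work with, none of 7 tested catenin genes passed, of 8 listed. Of 9 planar cell polarity partners of Celsr 6 were tested and 1 fell, Prickle2, a core polarity protein, with 23, 25 and 21 peaks at DIV1 and 7, 13 and 7 at DIV7 (coefficient -0.18 ± 0.0329 SE, limma adjusted p = 0.00132). None of 2 tested CTCF and cohesin genes, of 8 listed, and none of 3 tested WAVE complex genes, of 6, passed. Of the marker lists, 2 of 7 tested granule neuron genes fell (Pax6 and Barhl1), as did 1 of 3 tested astrocyte genes (Aldh1l1) and the 1 tested oligodendrocyte gene (Mbp). The share of all tested genes that fell was 10.2%, and lists this short cannot be set apart from it.

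Merging overlapping peaks of the 12 libraries gave 286729 regions, of which 1077 overlapped the members' windows. Most were seen once: 726 (67.4%) came from 1 library, against 63.0% of all regions, and 33 (3.06%) were shared by all 12, against 4.28%. The 33 lay at 19 places in Cdh genes, 6 at other protocadherins, 5 at Celsr genes and 3 in the arrays. By mean percentile of the authors' maximum signal the highest was at the Celsr3 start (chr9:108824074-108827747, 80.0), followed by the Pcdh9 promoter printed above (chr14:93889257-93891934, 77.4), Cdh2 (chr18:16806580-16810119, 76.4) and Cdh15 (chr8:122851478-122854058, 70.5). The widest were the Pcdh10 promoter (6495 bp), the Pcdh7 promoter (6046 bp) and Pcdh1 (5336 bp), against a median of 1690 bp for all shared regions.

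The percentile within the library was tested for a trend with day with limma on its normal score. Of 12276 shared regions 1.3% fell and 0.741% rose (2.04% in all), and of the 33 at members 2 fell and 0 rose. The first lay inside Celsr2, 3006 bp from its listed start (chr3:108408898-108412573). It stood at the 86.5th, 68.5th and 50.5th percentile at DIV1, the 40.1st, 40.3rd and 42.5th at DIV3, the 10.1st, 9.81st and 8.65th at DIV5, and the 10.4th, 19.9th and 0.684th at DIV7 (coefficient -0.36 ± 0.0659 SE, limma adjusted p = 0.0131). All DIV1 libraries lay above all others. The region was called in every library, and the number of peaks at Celsr2 did not pass its own test.

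The second lay inside Cdh4 (chr2:179761823-179763544), at the 74.6th, 95.1st and 86.6th percentile at DIV1 and the 26.8th, 56.4th and 4.54th at DIV7 (coefficient -0.31 ± 0.0677 SE, limma adjusted p = 0.0271). With depth as a covariate neither passed (limma adjusted p = 0.234 for Celsr2 and 0.412 for Cdh4). Neither passed without the 3 libraries with fewest reads (0.0969 and 0.240, limma adjusted p), nor within the libraries of either read length. The Cdh4 region also missed the threshold without DIV1 replicate 2, DIV1 replicate 3 or DIV7 replicate 3 (limma adjusted p = 0.0813, 0.0657 and 0.0707).

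The region of strongest upward course was at Cdh15, or M-cadherin, a cadherin known from muscle and from cerebellar granule cells. It lay inside the gene, 3104 bp from the listed start, and stood at the 24.5th, 10.1st and 8.86th percentile at DIV1, the 85.4th, 92.6th and 96.7th at DIV3, the 96.2nd, 91.0th and 86.0th at DIV5, and the 86.7th, 96.9th and 71.6th at DIV7. Every later library lay far above the 3 of DIV1. The DIV1 libraries also precede cytosine arabinoside and share a read length, and the cause of this difference was not tested. The linear trend missed the threshold (coefficient 0.34 ± 0.0994 SE, limma adjusted p = 0.0778), and passed without the 3 libraries with fewest reads (0.535, limma adjusted p = 0.0409). The Cdh22 promoter region (chr2:165233197-165235753) went from 24.5, 4.13 and 4.09 at DIV1 to 46.9, 31.6 and 59.3 at DIV7, and also missed it (coefficient 0.22 ± 0.0558 SE, limma adjusted p = 0.0516). The Celsr2, Cdh15 and Cdh22 regions were picked by their trends. Their separation of DIV1 from later libraries is thus no added support, and its share over all shared regions is not given here.

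Presence or absence by day was tested with an exact permutation test in 52519 regions found in 3 to 9 libraries. None passed adjustment (0.0%; lowest adjusted exact permutation p = 0.134), and of the 183 at members none passed. At unadjusted exact permutation p under 0.05, 30 of the 183 were found more often early and 3 more often late, against 11.1% and 1.87% of all regions. Of all regions, 356 were present in every DIV1 and DIV3 library and in no DIV5 or DIV7 library, and 4 of these were at members. They lay inside Cdh13 (chr8:118951531-118952971 and chr8:118287326-118288718) and Cdh4 (chr2:179604859-179605965 and chr2:179799955-179800664). The pattern they were picked for fixes the exact permutation p at 0.00216 before adjustment, alike in all 356 regions. The opposite pattern held in 26 regions, 0 at members; the late region of smallest p lay inside Pcdh11x (chrX:120751685-120751955), present in the 3 DIV7 libraries only, with a mean of 9 reads.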

How the data were processed

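Peaks of 12 CUT&RUN libraries were used as deposited. Per the submitters' processing notes, which give no order, the tools included Trimmomatic 0.38, STAR 2.7.2b, SEACR 1.3 and bedtools 2.25.0, on mm10; control and caller settings were not given there. Each deposited list gives, per peak, the authors' total signal and maximum signal, not normalised between libraries; total signal divided by read length gave whole reads, and maximum signal stops at 100 or 102. Peaks were called per library, and peak number did not simply follow depth. DIV1 replicate 1 held 65919 peaks with 3.27 M reads in peaks, and DIV7 replicate 1 65102 with 1.01 M. Levels are peaks per 10000 of the library, each peak counted once per family. Gene spans came from RefSeq (GRCm38.p6); no exon or strand annotation was used. Regions are peaks merged over libraries with at least 1 bp of overlap. Trends used limma 3.58.1 (R 4.3.3) with Benjamini-Hochberg adjustment over all features, and exact permutation tests over libraries (Python 3.11.15, numpy 2.4.6). In simulated Poisson counts without added spread between libraries, 40.5% of genes changed by 0.25 log2 units per day were recovered. With a mean of at least 10 peaks 97.4% were, so trends at genes with few peaks could be missed. Of simulated shared regions changed by 0.3 log2 units per day, 87.5% were recovered. Genes were named by rule: all Celsr, the 6 Pcdh and 6 Cdh genes with most peaks, the 3 of smallest p in each and all that passed; regions by highest percentile and smallest p. Members, lists and tests were chosen with earlier results of these data known. The test of Cdh against other protocadherins and the density beside all genes were added after values were seen. The replicate numbers did not pair the libraries. Peak depth is 9 to 26 reads at the median per library, so faint peaks rest on few reads.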

Additional observations from a re-analysis of the deposited data

How the results depend on the processing

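The trends of all members, Cdh and Celsr kept their direction under every alternative run: gene spans without flanks, peaks of at least 20 reads, the part of a peak with the maximum, reads in place of peaks, gene-window peaks as denominator, libraries left out, read-length subsets. Within the 50-base libraries r was -0.948, -0.894 and -0.454 and within the 51-base libraries -0.873, -0.885 and -0.910, none past the adjusted threshold. The 50-base libraries, with few assignments of days, could hardly reach that threshold. Without the 3 libraries with fewest reads the Celsr trend (-0.691) missed it. The trends of clustered and other protocadherins, which never passed, changed sign: clustered 0.259 with at least 20 reads and 0.0620 per gene-window peak; other 0.0927 per gene-window peak and 0.336 without the 3 libraries. So did the trend of the clustered minus other difference: 0.0416 without flanks, 0.475 with at least 20 reads, 0.268 by reads, 0.150 at 50 and 0.0563 at 51 bases. The Cdh minus other trend missed the threshold with at least 20 reads (-0.270) and at 50 bases (-0.285). Leaving out each library gave r from -0.895 to -0.833 for all members, -0.922 to -0.868 for Cdh, -0.837 to -0.744 for Celsr, -0.410 to -0.00961 for clustered, -0.413 to 0.0402 for other, -0.189 to 0.222 for clustered minus other and -0.792 to -0.709 for Cdh minus other, and log2 differences of 0.960 to 1.06 and 0.748 to 0.843.

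Genes called by limma numbered 780, with 5 members. With a mean of at least 10 peaks they were 337 of 861 genes, with 4 of 21 members, most of the 21 being Pcdhg genes that share peaks. They were 20 with depth as a covariate, 334 with at least 20 reads, 163 without the 3 libraries and 3 within 50 bases, with 0, 3, 0 and 0 members in these 4. With no filter but 1 peak 696 genes passed and 6 members, Pcdh18 being added. Shared regions called numbered 251, with 2 members; by total signal 923 and 4, for regions called in at least 10 libraries (missing libraries set to signal 0) 970 and 4, by median-centred log2 signal 430 and 4, with depth 9 and 0, without the 3 libraries 101 and 1, within 50 bases 0 and 0, and within 51 bases 0 and 0. Leaving out each library gave 387 to 1005 genes with 4 to 5 members, 80 to 299 shared regions with 1 to 3 members, 0 occupancy passes, and 25 to 46 member regions more often early at unadjusted p under 0.05, against 30; by the part with the maximum these were 14 and without the 3 libraries 19. Of 753 alternative fits of 34 named genes and regions, 72 had the other sign, each with no call in either fit; the cause of these shifts was not tested. Same-numbered libraries did not deviate together (mean correlation 0.0366 over gene windows, from -0.216 to 0.251); with the replicate block 785 genes, 5 members, 186 shared regions and 2 member regions passed, and the Cdh trend was -0.930.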
